A study of Mus musculus with 32 samples.

Results

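Peaks of 3 histone marks were read at 9 mouse genes of antigen presentation and of macrophages: Cd74, Ciita, H2-Aa, H2-Ab1 and H2-Eb1, and Csf1r, Cd68, Lgals3 and Klf4. The genes were taken by name as a fixed list of 9 of the 21887 protein-coding genes in the gene table. That list was chosen with earlier results of these data known, so counts of its members beside shares of all genes are descriptions. The cells were HoxB8 cells, bone marrow progenitors of the mouse that keep dividing while estrogen holds a HoxB8 protein active. Every library came from cells grown without estrogen for 48 h. CUT&Tag, in which an antibody brings a transposase to a mark so that the DNA beside it is cut out and sequenced, was run for H3K27me3, H2AK119ub and H3K4me1, with 10 libraries per mark.

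The 10 libraries of each mark fell into 4 genotypes. The control carried a non-targeting guide RNA and the empty pMICH vector (n = 2). The Asxl1-guide cells carried the guide sgRNA Asxl1 B2, which per the series design truncates Asxl1, and the empty vector (n = 3). The CSF3R T618I cells carried the non-targeting guide and a pMICH vector that overexpresses the mutant receptor (n = 3), and the double cells carried the Asxl1 guide and that vector (n = 2). All 4 genotypes share the HoxB8 background and the estrogen withdrawal. The labels do not say whether the edited cells were a clone or a pool, nor whether replicates were separate cultures, so the p-values below measure the spread between these libraries, which may be technical. Peak positions do not read the edit or the transgene, so neither was checked here.

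Class II molecules of the major histocompatibility complex are pairs of an alpha and a beta chain that show peptides to CD4 T cells, and H2-Aa, H2-Ab1 and H2-Eb1 encode such chains. Cd74 encodes the invariant chain that escorts them from the endoplasmic reticulum, and Ciita encodes the transactivator that class II promoters need. Csf1r encodes the receptor for the macrophage growth factor M-CSF, Cd68 a lysosomal glycoprotein of macrophages, Lgals3 the lectin galectin-3, and Klf4 a zinc-finger transcription factor that takes part in monocyte differentiation. H3K4me1 is found at enhancers and beside promoters. H3K27me3 and H2AK119ub are laid down at silent genes by PRC2 and PRC1, and ASXL1 is a partner of BAP1, the enzyme that takes ubiquitin off H2A. CSF3R is the receptor for G-CSF, and T618I is an activating change of it seen in neutrophilic leukaemia.

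The measure was the share of a window that lay in peaks, in percent, or the length in peaks in kb. A gene window is the gene plus 5 kb on each side. For H3K4me1 a distal window of 50 kb on each side was read too. The peak lists give no heights or read counts, so depth is unknown and no counting interval can be given. A library of H3K27me3 listed between 6071 and 45373 peaks, one of H2AK119ub between 10866 and 33969, and one of H3K4me1 between 14479 and 21185. In H3K27me3 the Asxl1-guide library 2 stood apart, with 53.0 Mb in peaks, where the other libraries of that mark had 4.73 to 42.2 Mb. Each library pooled many cells, so more cells with a mark and more of the mark per cell cannot be told apart. H3K4me1 peaks lay at all 9 neutrophil markers in each genotype, and their summed length was 54.66 to 55.87 kb in the control, 42.23 to 48.47 kb in the Asxl1-guide, 66.55 to 79.8 kb in the CSF3R T618I and 54.5 to 60.15 kb in the double libraries. Of 6 progenitor markers, 5 had a peak in the control and with the Asxl1 guide, where Flt3 had none, and 6 with CSF3R T618I. In the double 5 had one, and Kit had none. Their summed length was 39.09 to 42.3 kb in the control and 35.7 to 44.4 kb with the guide. It was 34.2 to 44.59 kb with CSF3R T618I and 31.39 to 36.34 kb in the double. The 5 erythroid markers summed to at most 0.6 kb in any library. The 6 mast cell and basophil markers, of which Gata2 and Fcer1a had no peak, summed to 11.55 to 14.2 kb in the control and 8.35 to 13.05 kb in the Asxl1-guide libraries, below the 18.8 to 20.65 kb with CSF3R T618I and 15.25 to 28.24 kb in the double. Of 7 lymphoid markers, 3 had a peak in the control and 2 in the double, with sums of 9.7 to 13.06 kb in the control, 7.558 to 11.91 kb with the guide, 7.458 to 8.5 kb with CSF3R T618I and 4.95 to 7.85 kb in the double; Pax5, Cd3e and Cd4 were among those with none. Siglech of the dendritic list had none in any genotype, and the 7 dendritic genes summed to 11.9 to 12.65 kb in the control, 7.55 to 12.3 kb in the Asxl1-guide, 10.85 to 12.85 kb in the CSF3R T618I and 8.75 to 13.14 kb in the double libraries. The part of these markers in the results below was not tested.

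In H3K4me1 the 9 genes split into those whose own window carried peaks and those whose window did not. Cd74, Csf1r, Cd68 and Lgals3 had at least 500 bp in peaks in at least 2 libraries and were tested among 6040 genes. Cd74 and Lgals3 met that minimum only through CSF3R T618I and double libraries, so a CSF3R T618I difference was built into their selection. The counts and medians that follow, and the gene-window tests of both genes, are descriptions and support nothing further. H2-Aa, H2-Ab1, H2-Eb1 and Klf4 had no H3K4me1 peak in their gene window in any of the 10 libraries, and Ciita had one in 3 libraries, of at most 600 bp.

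A gene counted as changed where its adjusted p was below 0.05 (limma, Benjamini-Hochberg over all genes tested). Between CSF3R T618I and control, Cd74 and Cd68 rose and Csf1r fell, 3 of the 4 tested, where 6.79% of all tested genes were called (314 higher and 96 lower, or 377 and 237 with each library's length in peaks as a covariate). In double against Asxl1 guide, Cd74 and Lgals3 rose and Csf1r fell, against 14.2% of genes. In double against CSF3R T618I, Lgals3 rose and Cd68 fell, against 8.13%. With the CSF3R T618I difference averaged over both guides, Cd74, Lgals3 and Cd68 rose and Csf1r fell, against 21.3% (784 higher and 505 lower, or 782 and 970 with that covariate), and the median difference of the 4 was 10.7 percentage points, compared with 0.19 over all tested genes. The Asxl1 guide against control gave 0 calls among the 4 by limma, against 0.182% of genes. At an unadjusted p under 0.05 were 1 of the 4 (Csf1r) and 404 of all 6040 genes. Averaged over both backgrounds, the guide difference gave 1 call, Csf1r lower, against 4.88%. The interaction gave 0 of 4 by limma, against 1.01% of genes. At an unadjusted p under 0.05 were 3 of the 4 (Csf1r, Cd68 and Lgals3) and 713 of all 6040 genes. These comparisons share libraries, so the calls are not independent of each other.

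**Figure D1:**
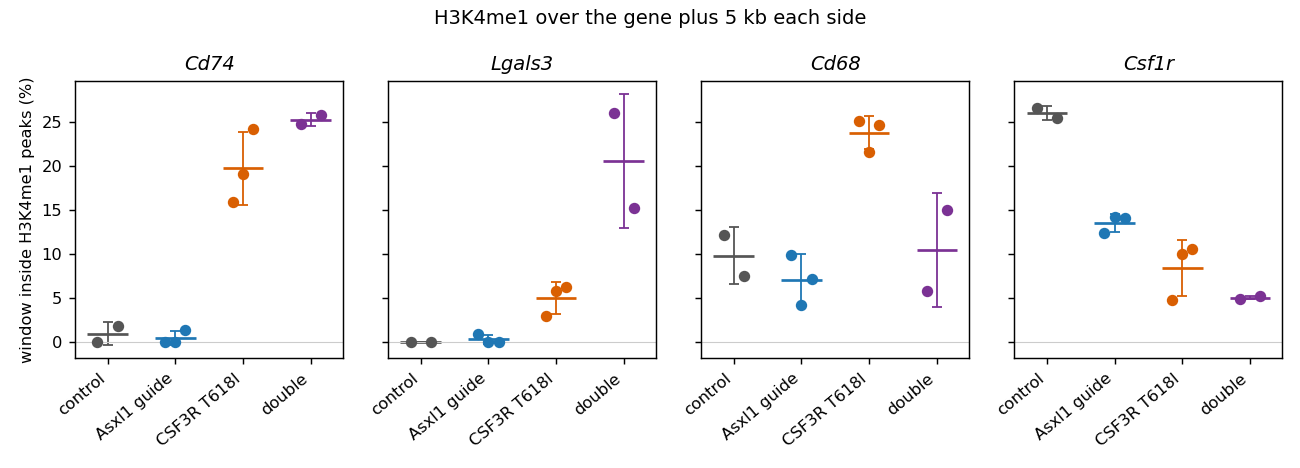
Share of the gene window (gene plus 5 kb each side) in H3K4me1 peaks, in percent, for Cd74, Lgals3, Cd68 and Csf1r; points are libraries, horizontal lines the genotype means and bars the SD (n = 2, 3, 3 and 2). Cd74 lies between 16.0% and 25.8% in the CSF3R T618I and double libraries and at or below 1.86% elsewhere, Lgals3 is highest in the double libraries, Cd68 in the CSF3R T618I libraries and Csf1r in the control.

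Cd74 gained an H3K4me1 domain inside the gene in every library with CSF3R T618I. The gene lies at chr18:60803849-60812652 (GRCm38.p6), and its window also reaches Tcof1. H3K4me1 peaks covered 0 and 0.35 kb of the window in the control libraries, 0, 0 and 0.25 kb with the Asxl1 guide, 3.0, 3.6 and 4.55 kb with CSF3R T618I, and 4.65 and 4.85 kb in the double. No library with the receptor overlapped one without it. As a share of the window this was 0.93% ± 1.32 (SD, n = 2) in the control, 0.443% ± 0.768 (n = 3) with the guide, 19.8% ± 4.16 (n = 3) with CSF3R T618I and 25.3% ± 0.750 (n = 2) in the double. The CSF3R T618I libraries exceeded the control by 18.8 percentage points (SE 2.13, adjusted p = 0.00397), and the double exceeded the Asxl1 guide by 24.8 points (adjusted p = 0.000949). Both calls held in each of the 10 fits without 1 library. The double libraries also lay above all CSF3R T618I libraries, but that difference of 5.50 points missed the threshold (adjusted p = 0.169). Cd74 met the minimum only through libraries with the receptor, so a CSF3R T618I difference was built into its selection.

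Nearly all of this length was 1 merged region, chr18:60804251-60809150, which begins 402 bp inside the lower-coordinate end of Cd74. It was 0% and 7.14% in peaks in the control, 0%, 0% and 5.10% with the guide, 61.2%, 73.5% and 85.7% with CSF3R T618I, and 94.9% and 99.0% in the double. The remaining peaks within 50 kb did not move in this way. The regions chr18:60749951-60754050 and chr18:60756501-60765400 were 72.5% to 100.0% in peaks in every library. In the distal window Cd74 held 7.65 and 8.25 kb in the control and 13.2 and 13.3 kb in the double.

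**Figure D2:**
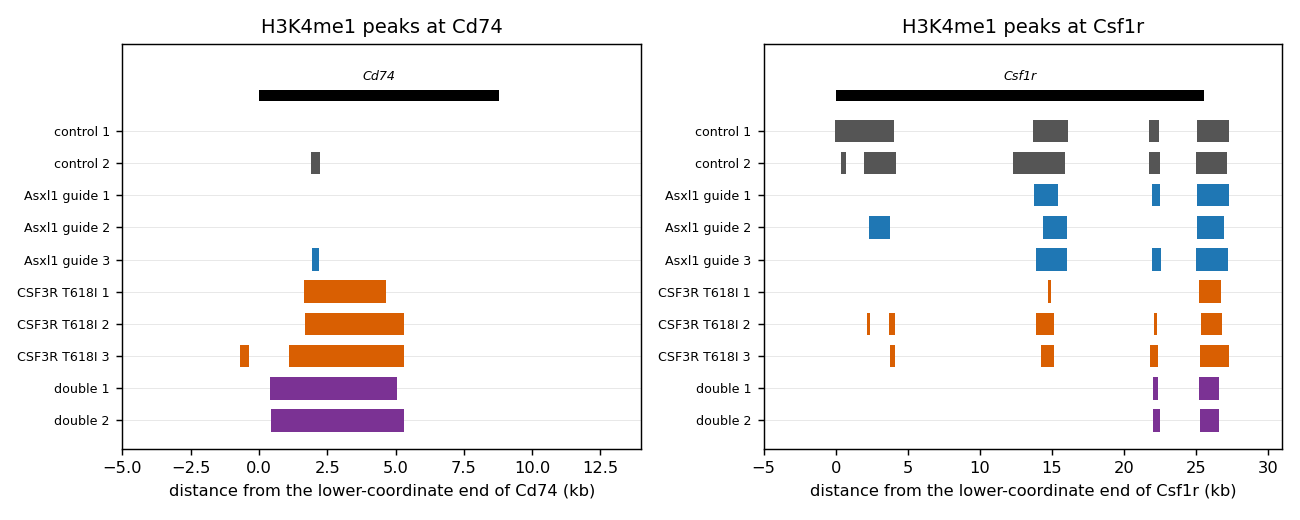
H3K4me1 peaks at Cd74 (left) and Csf1r (right), 1 row per library, against distance in kb from the lower-coordinate end of each gene; coloured blocks are peaks and black bars the genes. At Cd74 a domain inside the gene is present in all 5 CSF3R T618I and double libraries, and at Csf1r the 2 left-hand domains are widest in the control and absent from both double libraries.

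The class II chain genes lie together on chromosome 17, H2-Ab1 at chr17:34263227-34269418, H2-Aa at chr17:34282744-34287823 and H2-Eb1 at chr17:34305867-34316674 (GRCm38.p6). H2-Aa is read from the minus strand and H2-Eb1 from the plus strand. None of the 3 gene windows held an H3K4me1 peak in any library. The promoters of H2-Aa and H2-Eb1 are shown because class II promoters are known for the Y box, an inverted CCAAT sequence bound by NF-Y. The H3K4me1 regions described next lie outside both gene windows, and the first to the right of H2-Eb1 begins 23834 bp after its start. Each is the 250 bases before the start site from RefSeq (GRCm38.p6), 5′ to 3′ along the gene, with CG pairs in capitals, at chr17:34287824-34288073 on the minus strand for H2-Aa and chr17:34305617-34305866 on the plus strand for H2-Eb1.

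H2-Aa: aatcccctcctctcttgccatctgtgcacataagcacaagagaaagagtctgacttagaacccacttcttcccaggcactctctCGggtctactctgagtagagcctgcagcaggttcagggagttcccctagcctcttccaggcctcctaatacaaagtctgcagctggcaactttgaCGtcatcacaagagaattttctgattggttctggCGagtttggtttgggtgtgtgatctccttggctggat
H2-Eb1: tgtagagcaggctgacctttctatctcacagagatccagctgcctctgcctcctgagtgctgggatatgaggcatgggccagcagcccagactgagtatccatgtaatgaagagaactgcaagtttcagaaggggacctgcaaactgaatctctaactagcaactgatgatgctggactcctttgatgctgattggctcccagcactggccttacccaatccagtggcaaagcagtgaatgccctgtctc

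Both strands were searched for CCAAT and its inverse ATTGG. H2-Aa holds ATTGG 48 bases before the start, and H2-Eb1 holds ATTGG 59 bases and CCAAT 35 bases before it. Either motif occurs in 33.8% of the 32851 promoter entries of the same length, so a match is a description and not a site. H2-Aa has 3 CG pairs and H2-Eb1 has 0, where the median entry has 6.

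To the right of these genes, 3 called H3K4me1 regions in the neighbouring H2-Eb2 and Btnl2 had peaks in libraries without the mutant receptor and none with it. The region chr17:34366301-34366800 in Btnl2 had a peak only in control library 1 and Asxl1-guide library 3, and was not called. The remaining regions of the same genes kept peaks throughout. The region chr17:34335201-34336600 lies in H2-Eb2, which encodes another class II beta chain, 18527 bp to the right of H2-Eb1. It was 92.9% and 89.3% in peaks in the control and 100.0%, 96.4% and 96.4% with the Asxl1 guide. It held no peak in any CSF3R T618I or double library. CSF3R T618I fell below control by 91.1 percentage points (SE 7.36, adjusted p = 0.00114) and the double below the Asxl1 guide by 97.6 points (adjusted p = 0.000306). Both calls held in all 10 fits without 1 library. This region passed the minimum of 2 libraries only through control and Asxl1-guide libraries. Of the 14 called regions near the listed genes, 9 passed it only through libraries on 1 side, with or without the receptor, so a difference was built into their selection, and their counts and tests describe these regions and support nothing further.

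A pair of smaller regions had the same presence and absence over genotypes. The region chr17:34363851-34364500 in Btnl2, a butyrophilin-like gene, was 38.5% to 84.6% in peaks in all 5 libraries without the receptor and 0% in all 5 with it (averaged CSF3R T618I difference -54.5 points, adjusted p = 0.00527). The region chr17:34329701-34330300 in H2-Eb2 had a peak in 4 of the 5 libraries without the receptor and in none with it (-55.6 points, adjusted p = 0.0475), a call kept only without control library 2 or Asxl1-guide library 2 and at 0.117 without control library 1. The region chr17:34340551-34342000, also in H2-Eb2, was 82.8% to 100.0% in peaks without the receptor and 34.5% to 89.7% with it, and chr17:34353551-34356300, in Btnl2, was 14.5% to 80% and 12.7% to 69.1%. Both had a peak in all 10 libraries, and neither was called. Between H2-Ob and H2-Ab1 lies chr17:34247901-34251300, which had a peak in 9 of 10 libraries and was not called in any comparison.

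**Figure D3:**
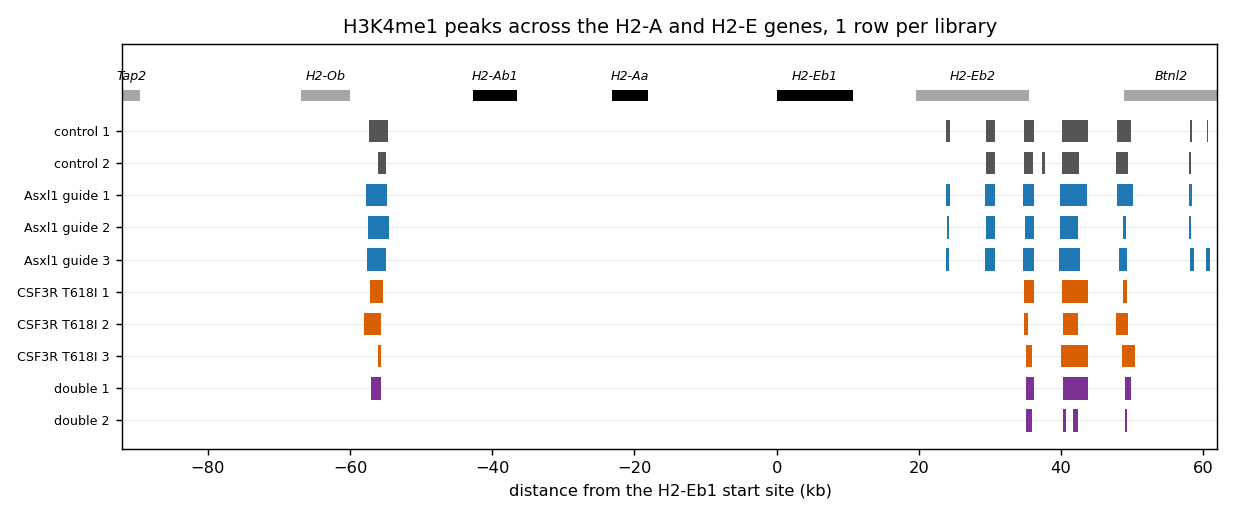
H3K4me1 peaks across the H2-A and H2-E genes, 1 row per library, against distance in kb from the H2-Eb1 start site; black bars are the listed genes and grey bars their neighbours. The 3 listed genes carry no peak, and the peak about 30 kb to the right of the H2-Eb1 start, in H2-Eb2, is present in all control and Asxl1-guide libraries and in no CSF3R T618I or double library.

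The distal windows of the 3 chain genes overlap, so their values share peaks. H2-Aa held 4350 and 2400 bp in the control, 4950, 4450 and 4450 bp with the Asxl1 guide, 1850, 2350 and 400 bp with CSF3R T618I, and 1400 and 0 bp in the double. The double fell below the guide by 3.73 percentage points of the window (SE 0.759, adjusted p = 0.0193), with no overlap between these libraries. That call was lost without Asxl1-guide library 1 (adjusted p = 0.0611), Asxl1-guide library 3 (0.0602) or double library 2 (0.0765). With the CSF3R T618I difference averaged over both guides, H2-Aa fell by 2.74 points (adjusted p = 0.0112) and kept the call in all 10 such fits, and H2-Eb1 fell by 3.14 points (adjusted p = 0.042), a call that held only without Asxl1-guide library 2 or double library 1 and reached 0.148 without control library 1. Without peaks that overlap IgG peaks the H2-Eb1 difference was -2.28 points (adjusted p = 0.125). H2-Ab1, at -1.33 points, missed the threshold (adjusted p = 0.0916).

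Ciita, at chr16:10480014-10531064, had little H3K4me1. Its distal window held 2.35 and 0.40 kb in the control, 1.70, 0.25 and 0.70 kb with the guide, 0, 0.25 and 0.35 kb with CSF3R T618I, and none in the double. The 2 merged regions behind most of this length lie to the right of Ciita, in Dexi and Clec16a, and neither was called. In control library 1 they held 2000 bp of the 2.35 kb. The smallest adjusted p by limma for the distal window was 0.178, for the averaged CSF3R T618I difference. A pair of IgG background peaks also lie in the gene window of Ciita.

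Csf1r had the most H3K4me1 in the control and less with CSF3R T618I. The gene lies at chr18:61105572-61131139, and its window reaches Hmgxb3. H3K4me1 peaks covered 9.45 and 9.05 kb of the window in the control, 4.40, 5.05 and 5.00 kb with the Asxl1 guide, 1.70, 3.55 and 3.75 kb with CSF3R T618I, and 1.75 and 1.85 kb in the double. Both control libraries lay above all others, and the Asxl1-guide libraries lay above all libraries with the receptor. The means were 26.0% ± 0.799 (n = 2), 13.5% ± 1.02 (n = 3), 8.43% ± 3.18 (n = 3) and 5.06% ± 0.199 (n = 2) of the window. CSF3R T618I fell below control by 17.6 percentage points (SE 1.68, adjusted p = 0.00228), a call that held in all 10 fits without 1 library. The double fell below the Asxl1 guide by 8.48 points (adjusted p = 0.0183), but not without Asxl1-guide library 3 (0.0628), double library 1 (0.095) or double library 2 (0.0592).

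For the guide, the averaged difference at Csf1r was -7.92 points (adjusted p = 0.017) and was lost without control library 1 (0.0737), control library 2 (0.0595), double library 1 (0.0525) or double library 2 (0.0506). Against control alone the guide difference was -12.5 points (adjusted p = 0.0564), with no overlap between the libraries. The double and the CSF3R T618I libraries overlapped and did not differ beyond their spread (adjusted p = 0.268). In the distal window the lengths were 9.45 and 9.25 kb in the control and 1.75 and 1.85 kb in the double, so few H3K4me1 peaks lay beyond the gene window.

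The difference was uneven along Csf1r. At the lower-coordinate end, chr18:61105501-61109750 was 96.5% and 60.0% in peaks in the control, 0%, 35.3% and 0% with the guide, 0%, 12.9% and 7.06% with CSF3R T618I, and 0% in both double libraries. Inside the gene, chr18:61117901-61121700 was 64.5% and 93.4% in the control, 43.4%, 43.4% and 57.9% with the guide, 5.26%, 34.2% and 23.7% with CSF3R T618I, and 0% in both double libraries. At the other end, chr18:61130551-61132850, which also covers the end of Hmgxb3, stayed between 58.7% and 95.7% in all libraries, and its averaged CSF3R T618I difference was -27.2 points (adjusted p = 0.0265), a call kept only without Asxl1-guide library 2 or any 1 of the CSF3R T618I libraries and at 0.0822 without control library 1. For the first region the CSF3R T618I difference from control was -71.6 points (SE 14.7, adjusted p = 0.0219), and the call was lost without control library 1 (0.162) or CSF3R T618I library 3 (0.0518). For the second it was -57.9 points (SE 12.4, adjusted p = 0.0263), lost without control library 2 (0.175) or CSF3R T618I library 3 (0.0523).

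Cd68 is a short gene at chr11:69664213-69666170, read from the minus strand, between Mpdu1 and Eif4a1. H3K4me1 peaks covered its start site in all 10 libraries, and with CSF3R T618I alone they spread over the whole gene. They covered 1450 and 900 bp of the window in the control, 1188, 500 and 850 bp with the Asxl1 guide, 3000, 2588 and 2950 bp with CSF3R T618I, and 700 and 1800 bp in the double. The 3 CSF3R T618I libraries lay above all 7 others. The downstream edge of the peak over the start site lay 469 and 969 bp into the gene in the control, 319, 569 and 619 bp with the guide, 2069 to 2319 bp with CSF3R T618I, and 169 and 1519 bp in the double.

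The Cd68 means were 9.83% ± 3.26, 7.08% ± 2.88, 23.8% ± 1.88 and 10.5% ± 6.50 of the window in the same order of genotypes. CSF3R T618I exceeded control by 14.0 percentage points (SE 2.99, adjusted p = 0.0354) and the double fell below CSF3R T618I by 13.3 points (SE 2.99, adjusted p = 0.0381). These calls lie near the threshold. The first held only without Asxl1-guide library 2 or either double library and reached 0.223 without control library 2. The second held only without Asxl1-guide library 2 or double library 2 and reached 0.133 without double library 1. The averaged CSF3R T618I difference of 8.68 points (adjusted p = 0.0267) was lost without control library 1 (0.0511), control library 2 (0.0977), Asxl1-guide library 3 (0.0593), CSF3R T618I library 1 (0.0543) or CSF3R T618I library 3 (0.0526). The double did not differ from the Asxl1 guide beyond the spread (3.38 points, SE 2.99, adjusted p = 0.509).

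Lgals3 gained H3K4me1 upstream of its start in every library with CSF3R T618I, and the domain at the start site was widest in the double. The gene lies on the plus strand at chr14:47373860-47386167, and its window reaches Dlgap5. Its promoter is shown because the mark reaches the start site there. It is the 250 bases at chr14:47373610-47373859, from RefSeq (GRCm38.p6), 5′ to 3′, with CG pairs in capitals.

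Lgals3: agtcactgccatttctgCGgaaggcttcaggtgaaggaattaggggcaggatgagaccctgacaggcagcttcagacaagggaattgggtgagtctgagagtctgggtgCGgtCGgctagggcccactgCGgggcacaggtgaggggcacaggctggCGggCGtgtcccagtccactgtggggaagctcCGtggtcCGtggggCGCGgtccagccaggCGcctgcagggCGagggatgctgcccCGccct

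It holds 13 CG pairs, a number that 31.5% of promoter entries reach, and ATTGG 167 bases before the start. H3K4me1 peaks covered 0 and 0 kb of the gene window in the control, 0.20, 0 and 0 kb with the Asxl1 guide, 0.65, 1.30 and 1.40 kb with CSF3R T618I, and 5.80 and 3.40 kb in the double. The CSF3R T618I libraries lay above the first 5, and the double libraries above all others. The start site itself lay in a peak in 0 of 2 control, 0 of 3 Asxl1-guide, 1 of 3 CSF3R T618I and 2 of 2 double libraries. The means were 0% in the control, 0.299% ± 0.518 with the guide, 5.01% ± 1.83 with CSF3R T618I and 20.6% ± 7.61 in the double.

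The double exceeded CSF3R T618I at Lgals3 by 15.6 percentage points (SE 2.77, adjusted p = 0.0197) and the Asxl1 guide by 20.3 points (SE 2.77, adjusted p = 0.00485), and both calls held in all 10 fits without 1 library. The first rose to 0.0638 with a flank of 10 kb. CSF3R T618I against control was 5.01 points in the gene window (adjusted p = 0.369). In the distal window the same comparison did pass, with 4550 and 5150 bp in the control and 10650, 10500 and 14250 bp with CSF3R T618I (6.19 points, SE 1.29, adjusted p = 0.032). It was lost without control library 1 (0.203), control library 2 (0.159), Asxl1-guide library 1 (0.0531), Asxl1-guide library 3 (0.0612) or CSF3R T618I library 3 (0.0587), and with a flank of 20 kb (0.0606). The Asxl1-guide libraries held 5550, 4750 and 4600 bp and the double 17950 and 13800 bp. The interaction in the gene window was 15.3 points and missed the threshold (adjusted p = 0.167). For the gene window, Lgals3 met the minimum only through libraries with the receptor, so a CSF3R T618I difference there was built into its selection.

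The new H3K4me1 at Lgals3 came as separate regions from 46609 bp before the start onward. Of 9 merged regions within 50 kb, 6 were called, all higher for the averaged CSF3R T618I difference, and 5 of those 6 held no peak in any control or Asxl1-guide library. All 6 passed the minimum of 2 libraries only through libraries with the receptor. Farthest from the gene, chr14:47327251-47328550 was 46.2%, 84.6% and 88.5% in peaks with CSF3R T618I and 30.8% and 15.4% in the double, and chr14:47332101-47332850 was 86.7%, 60.0% and 73.3%, then 60.0% and 26.7%. In these 2 regions the double values were the lower ones or equal to the lowest CSF3R T618I library.

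The reverse order held in chr14:47334901-47336000, with 0%, 22.7% and 31.8% with CSF3R T618I and 90.9% and 95.5% in the double, and in chr14:47367401-47368700, with 19.2%, 26.9% and 34.6% and then 80.8% and 100.0%. The double exceeded CSF3R T618I by 75.0 points (SE 10.4, adjusted p = 0.00315) in the first and by 63.5 points (SE 9.16, adjusted p = 0.00379) in the second, in all 10 fits without 1 library. The domain at the start, chr14:47369601-47375450, was 11.1%, 22.2% and 23.9% in peaks with CSF3R T618I and 99.1% and 58.1% in the double (59.5 points, SE 12.3, adjusted p = 0.02), a call lost without double library 1 (adjusted p = 0.11) and kept in the other 9 such fits. A region at chr14:47359451-47361900 was covered in all 5 libraries with the receptor, from 32.7% to 100.0%. The regions chr14:47352001-47355650 and chr14:47392451-47396350 had peaks in all 10 libraries and were not called.

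**Figure D4:**
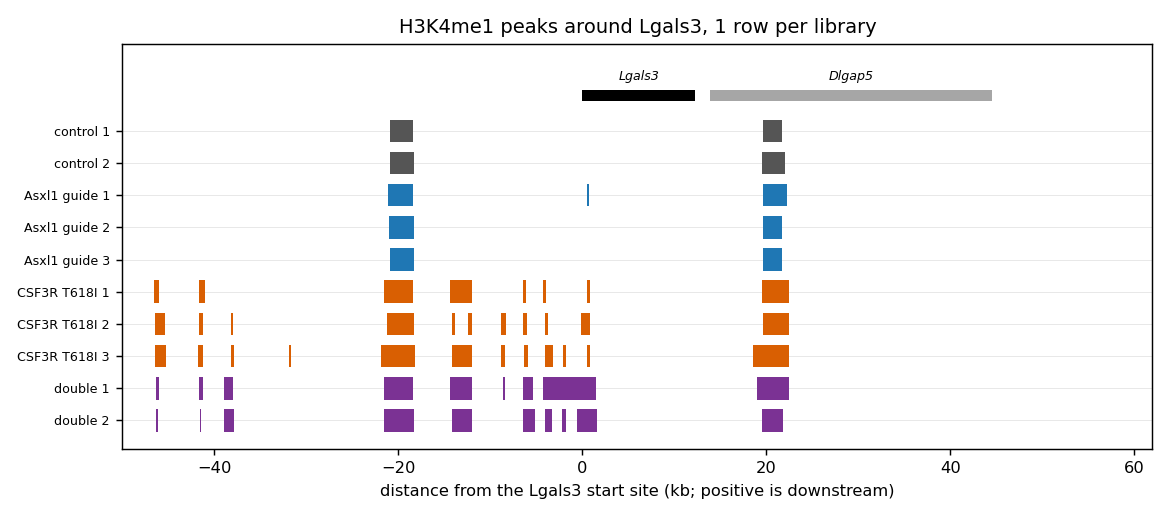
H3K4me1 peaks around Lgals3, 1 row per library, against distance in kb from the Lgals3 start site (positive is downstream); the black bar is Lgals3 and the grey bar Dlgap5. Between the peaks near -20 kb and +20 kb, which every library has, the control and Asxl1-guide libraries are empty but for 1 peak of 200 bp, and both double libraries have a peak over the start.

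Klf4 was the only listed gene with H3K27me3 in every library, and its H3K27me3 peak reached further upstream outside the control. The gene lies on the minus strand at chr4:55527137-55532475, with no other protein-coding gene within 50 kb. Its promoter, at chr4:55532476-55532725, is shown because the edge of the Polycomb peaks crosses it. It is written like those above.

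Klf4: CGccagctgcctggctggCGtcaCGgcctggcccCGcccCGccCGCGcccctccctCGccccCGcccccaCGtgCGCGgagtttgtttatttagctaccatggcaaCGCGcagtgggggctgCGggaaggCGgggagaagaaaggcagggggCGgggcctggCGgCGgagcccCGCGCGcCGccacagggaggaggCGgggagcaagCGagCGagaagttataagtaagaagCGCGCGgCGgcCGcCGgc

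It holds 32 CG pairs in 250 bases, a number that 4.6% of promoter entries reach, and neither CCAAT nor ATTGG. H3K27me3 peaks covered 1600 and 1900 bp of the gene window in the control, 2650, 4250 and 3150 bp with the Asxl1 guide, 4550, 4450 and 4250 bp with CSF3R T618I, and 4050 and 4200 bp in the double. Both control libraries lay below all 8 others. In the control the peak stopped 825 and 525 bp inside the gene, short of the start site. It passed the start site by 275, 625 and 675 bp with the guide, by 1225, 1475 and 1225 bp with CSF3R T618I, and by 1125 and 1275 bp in the double. The start site was thus in an H3K27me3 peak in 0 of 2 control libraries and in all 8 others.

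Of the 9 genes, 4 could be tested for H3K27me3 among 6159 genes: Ciita, H2-Aa, Csf1r and Klf4. In CSF3R T618I against control, Klf4 rose by 17.4 percentage points of its window (SE 2.76, adjusted p = 0.026), 1 of 4, where 3.52% of tested genes were called. The averaged CSF3R T618I difference was 11.2 points (adjusted p = 0.0481), again 1 of 4, against 1.59% of genes. The other comparisons called 0 of the 4 by limma, where 8.85% of genes were called for double against CSF3R T618I, 0.0974% for double against the guide, 0.244% for the interaction and 5.07% for the averaged guide. Of the 28 pairs of a gene and a comparison, 7 had an unadjusted p under 0.05. These were for Klf4 and for H2-Aa, which met the minimum only through libraries with the receptor. Over all 6159 genes, 152 (double against the guide) to 1888 (double against CSF3R T618I) had such a p in a comparison. All 217 genes called in CSF3R T618I against control were higher, the median of all tested genes was 3.21 points, and the libraries had 31.3 to 42.2 Mb in H3K27me3 peaks, compared with 15.9 and 22.7 Mb in the control. With the length in peaks as a covariate the Klf4 difference was 14.8 points (adjusted p = 0.00747). These calls were close to the threshold. The first held only without Asxl1-guide library 1, Asxl1-guide library 2 or CSF3R T618I library 1 and reached 0.257 without control library 1, and the second held only without Asxl1-guide library 2 and reached 0.256 without control library 1. Without Asxl1-guide library 2, the library that stood apart, they were 17.4 points (adjusted p = 0.00195) and 12.7 points (adjusted p = 0.00209). The guide against control at Klf4 was 10.4 points (SE 2.76) with an adjusted p of 1, and 7.50 points (adjusted p = 0.0418) without that library. In that comparison limma called 0 genes of the 6159 (0.0%), with 199 at an unadjusted p under 0.05, and 236 of 5843 without that library.

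H2AK119ub at Klf4 was not called in any comparison. Its peaks covered 3200 and 1850 bp of the window in the control, 1850, 4000 and 4150 bp with the guide, 3550, 2800 and 3200 bp with CSF3R T618I, and 3450 and 3000 bp in the double, so every pair of genotypes overlapped. Its main peak was 2400 and 1850 bp wide in the control, 1850, 4000 and 3600 bp with the guide, 3550, 2800 and 3200 bp with CSF3R T618I, and 3450 and 3000 bp in the double, so that by width alone both control libraries lay below all libraries with the receptor. The start site lay in it in 0 of 2 control, 2 of 3 Asxl1-guide, 2 of 3 CSF3R T618I and 2 of 2 double libraries. Klf4 had no H3K4me1 peak within 50 kb in any library.

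**Figure D5:**
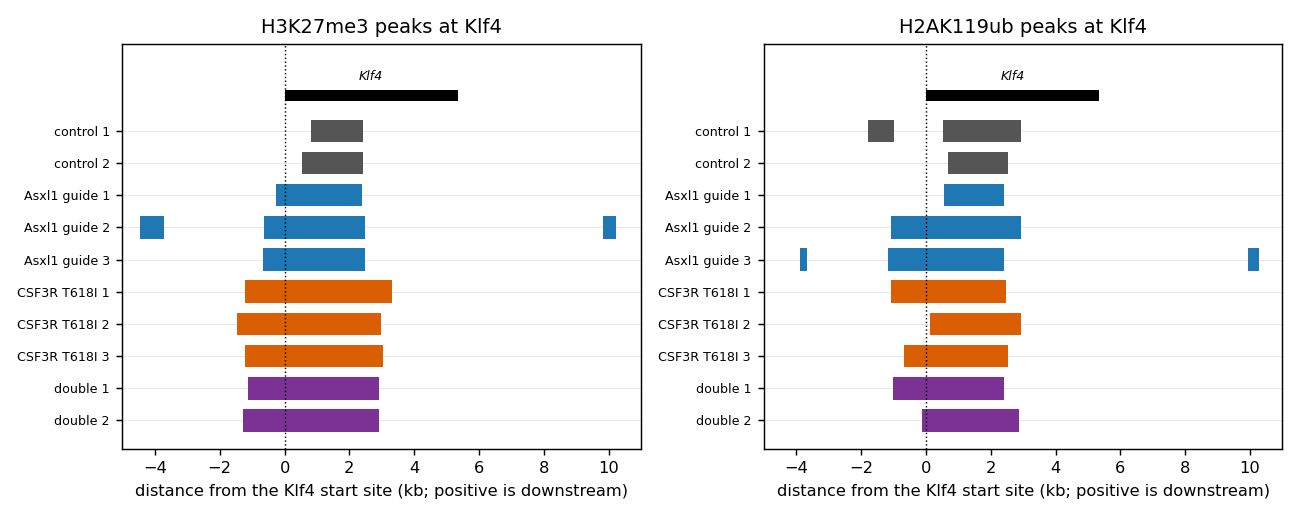
H3K27me3 (left) and H2AK119ub (right) peaks at Klf4, 1 row per library, against distance in kb from the Klf4 start site (dotted line; positive is downstream). The H3K27me3 peaks of both control libraries end short of the start site, while those of the other 8 libraries pass it.

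At the other genes H3K27me3 was sparse. Cd74, H2-Eb1 and Cd68 had no H3K27me3 peak in their windows in any library, and Lgals3 had a single peak of 200 bp in 1 double library. H2-Aa had a peak of 600, 600 and 700 bp in the CSF3R T618I libraries and of 500 bp in double library 2, and none in the other 6 libraries. The peak lay beyond the downstream end of H2-Aa, on the H2-Ab1 side, within 6573 to 7272 bp after the start site. The CSF3R T618I libraries exceeded control by 4.2 percentage points of the window (SE 0.952, adjusted p = 0.0622), and the adjusted p was 0.0331 without Asxl1-guide library 2. H2-Aa met the minimum for this mark only through libraries with the receptor. A difference was thus built into its selection, and these values describe the gene and support nothing further. Ciita had H3K27me3 peaks in 6 libraries, the most in Asxl1-guide library 2 with 5750 bp, and Csf1r in 3, again with the most there, 1950 bp. H2-Ab1 had them in CSF3R T618I libraries 2 and 3.

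H2AK119ub was found at 8 of the 9 genes, all but Cd68, and these 8 were tested among 7361 genes. In none of the 7 comparisons was any of the 8 called by limma. The background share of called genes was 2.27% for the guide against control, 0.543% for CSF3R T618I against control, 7.30% for double against CSF3R T618I, 8.53% for double against the guide, 0.394% for the interaction, 12.2% for the averaged guide and 7.63% for the averaged CSF3R T618I difference. Of the 56 pairs of a gene and a comparison, 4 had an unadjusted p under 0.05, 2 for Lgals3 and 2 for Cd74. Over all 7361 genes, 833 (CSF3R T618I against control) to 2316 (averaged guide) had such a p in a comparison, so these pairs did not stand out. Cd74 met the minimum only through libraries with the non-targeting guide, so its 2 guide differences were built into its selection. H2-Aa and H2-Ab1 met it only through libraries with the receptor, so a CSF3R T618I difference was built into theirs.

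At Lgals3 the H2AK119ub peak sat on the start site in the control and was shorter in most libraries with the receptor. It covered 1350 and 1300 bp of the window in the control, 1250, 1450 and 1050 bp with the guide, 350, 500 and 1250 bp with CSF3R T618I, and 350 and 250 bp in the double. The start site lay in it in 2 of 2, 2 of 3, 1 of 3 and 0 of 2 libraries. The averaged CSF3R T618I difference was -3.53 percentage points (SE 0.845, adjusted p = 0.052), just outside the threshold. It passed without CSF3R T618I library 1 (adjusted p = 0.0466), without CSF3R T618I library 3 (0.0119) and with a flank of 1 kb (0.0238).

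At Cd74 the H2AK119ub values were 3400 and 1052 bp in the control, none with the guide, 0, 1900 and 350 bp with CSF3R T618I, and none in the double (guide against control -11.8 points, SE 4.07, adjusted p = 0.199). At Csf1r they were 2500 and 2250 bp in the control, 0, 350 and 1550 bp with the guide, 1450, 7150 and 3800 bp with CSF3R T618I, and 5400 and 2650 bp in the double (averaged CSF3R T618I difference 7.24 points, SE 3.22, adjusted p = 0.188). The H2AK119ub peak beside H2-Aa, at the place of its H3K27me3 peak, was present in 9 of 10 libraries at 300 to 600 bp, and double library 2 lacked it. Ciita, H2-Ab1 and H2-Eb1 had at most 1150, 1150 and 1350 bp.

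Over the distal H3K4me1 windows, 8 of the 9 genes were tested among 11367, all but Klf4. The averaged CSF3R T618I difference called 5 of the 8, Cd74 and Lgals3 higher and H2-Aa, H2-Eb1 and Csf1r lower, where 22.5% of genes were called. CSF3R T618I against control called 3 of 8 (Cd74, Csf1r and Lgals3; background 7.59%), double against the guide 4 of 8 (these 3 and H2-Aa; 14.9%), and the averaged guide difference 1 of 8 (Csf1r lower; 5.10%). Of these, Cd74 in CSF3R T618I against control kept its call only without Asxl1-guide library 2, reaching 0.294 without control library 1. Csf1r for the averaged guide kept it only without CSF3R T618I library 1, reaching 0.129 without control library 2. The guide against control called 0 of 8 and 0 of all genes (0.0%) by limma, with 1 of 8 (Csf1r) and 625 of all genes at an unadjusted p under 0.05. Double against CSF3R T618I and the interaction called 0 of 8, against 8.47% and 0.405%. At an unadjusted p under 0.05 were 3 and 1 of 8, and 3091 and 1159 of all 11367 genes. The median averaged CSF3R T618I difference of the 8 was -1.12 points, compared with 0.17 over all genes.

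By region, 32 merged H3K4me1 regions lay within 50 kb of a listed gene, among 22842 tested. For the averaged CSF3R T618I difference 8 of them rose and 6 fell, where 16.1% of all regions rose and 9.20% fell. For CSF3R T618I against control 5 rose and 3 fell (8.77% of regions called), for double against the guide 6 rose and 3 fell (17.1%), and for double against CSF3R T618I 3 rose and 1 fell (9.60%). The averaged guide difference called 2 of 32, both higher and both at Lgals3 (7.68%), and the interaction called the same 2 (4.21%). The guide against control called 0 of 32, against 0.994% of regions.

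Other genes of class II presentation were read from a list of 23, of which 18 could be tested in the H3K4me1 gene window. For the averaged CSF3R T618I difference 2 were higher and 5 lower, 7 of 18 where 21.3% of genes were called, with a median of -0.11 points beside 0.19 for all genes. CSF3R T618I against control called 1 higher and 2 lower of the 18 (6.79% of genes), double against the guide 1 higher and 2 lower (14.2%), and the guide against control 0 by limma (0.182%). H2-Eb2 fell, from 13.2% ± 1.09 in the control and 14.96% ± 1.24 with the guide to 4.93% ± 1.85 with CSF3R T618I and 4.67% ± 0.546 in the double (-9.26 points, adjusted p = 0.000747). Its window holds the H2-Eb2 regions described above. H2-DMb1 and H2-DMb2, beta chains of the H2-M molecule that loads peptides, fell by 5.87 points (adjusted p = 0.0102) and by 13.4 points (adjusted p = 0.0208). Lgmn, the lysosomal protease legumain, rose by 2.36 points (adjusted p = 0.0106), and Ctss, the protease that trims the invariant chain, by 3.69 points (adjusted p = 0.029). The H2-DMb1 window held no H3K4me1 peak with the receptor, and that of Lgmn none without it. Both met the minimum only through libraries on that side, so a difference was built into their selection. Their tests, and the counts above that include them, describe these genes and support nothing further.

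Irf1, an interferon-response transcription factor that acts upstream of Ciita, had the most H3K4me1 with CSF3R T618I alone. Its H3K4me1 share was 26.7% ± 2.55 in the control, 33.0% ± 4.04 with the guide, 50.6% ± 4.80 with CSF3R T618I and 19.4% ± 2.65 in the double. CSF3R T618I exceeded control by 24.0 points (SE 3.28, adjusted p = 0.00741), the double fell below CSF3R T618I by 31.3 points (adjusted p = 0.00276), and the interaction was -37.6 points (adjusted p = 0.0141). In H2AK119ub 8 of the 23 were tested and 1 was called, Ifi30, a lysosomal thiol reductase, lower for the averaged guide (-15.8 points, adjusted p = 0.0461). This was 1 of 8 where 12.2% of all genes were called, so it did not stand out from the background. Ifi30 was at 0% with the guide and 1.44% ± 2.04 in the double. It could meet the minimum only with libraries of the non-targeting guide, so its difference was in part built into its selection. In H3K27me3 4 were tested and none was called by limma in the 7 comparisons, where 0.0% to 8.85% of genes were called.

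Of 38 further monocyte and macrophage genes, 24 could be tested in the H3K4me1 gene window. For the averaged CSF3R T618I difference 1 was higher and 2 were lower, 3 of 24 where 21.3% of all genes were called, with a median of 0.90 points beside 0.19 for all genes. CSF3R T618I against control called 1 of 24, higher (6.79% of genes). Double against the guide and double against CSF3R T618I each called 2 of 24, lower (14.2% and 8.13%). Klf2, a zinc-finger factor of the same family as Klf4, rose by 24.0 points (adjusted p = 0.0209). Cx3cr1, the fractalkine receptor, fell by 15.4 points (adjusted p = 0.00549), and Irf8, a transcription factor of the monocyte and dendritic lineages, fell by 3.90 points (adjusted p = 0.0232). The Irf8 window held no H3K4me1 peak in CSF3R T618I or double libraries. Irf8 met the minimum only through control and Asxl1-guide libraries, so its difference was built into its selection. Its test, and the counts above that include it, describe these genes and support nothing further. Apoe was 33.9% ± 0.939 in the control and 50.7% ± 3.41 with CSF3R T618I (16.8 points, adjusted p = 0.0227), and at 29.4% ± 0.704 in the double it fell below CSF3R T618I (adjusted p = 0.0104).

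In H3K27me3, 14 of the 38 were tested. CSF3R T618I against control called 1 higher (3.52% of genes), double against CSF3R T618I 2 lower (8.85%) and the interaction 1 lower (0.244%). The averaged CSF3R T618I difference called 1 higher (1.59%) and the averaged guide difference 1 lower (5.07%). Irf8 was 14.3% ± 2.23 in peaks with CSF3R T618I, 0.275% ± 0.476 with the guide and 0% in the control and in the double. It rose in CSF3R T618I against control (adjusted p = 0.00421), fell in the double against CSF3R T618I (adjusted p = 0.00289), and had an interaction of -14.6 points (adjusted p = 0.0373). Irf8 could meet the minimum of 500 bp in 2 libraries only with CSF3R T618I libraries. A difference was thus built into its selection, and these tests describe the gene and support nothing further. Mertk, a receptor for the uptake of dying cells, was 7.73% ± 1.63 with CSF3R T618I and 1.71% in both double libraries (-6.03 points, adjusted p = 0.0253). In H2AK119ub 20 were tested. The averaged CSF3R T618I difference called 1 of 20, Klf2, lower, where 7.63% of genes were called. Klf2 fell by 24.75 points (adjusted p = 0.0476). It was 49.8% ± 3.65 in the control, 30.05% ± 11.1 with the guide, 14.7% ± 11.6 with CSF3R T618I and 15.7% ± 1.40 in the double.

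The genes whose H3K4me1 gene-window share ran most like a listed gene over the 10 libraries, among genes more than 1 Mb away, were Prdm11 (Pearson r = 0.996) and Asb2 (0.991) for Cd74, Ccdc33 (0.991) and Top1 (0.982) for Lgals3, Rps6kl1 (0.963) and Fosl1 (0.960) for Cd68, and Ednra (0.962) and Clec3a (0.958) for Csf1r. These are descriptions over the same 10 libraries, picked as the highest of 6040 genes, and the points share library and depth.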

How the data were processed

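H3K27me3, H2AK119ub and H3K4me1 were profiled by CUT&Tag in 30 libraries, and 2 IgG libraries were merged into 1 list. The authors deposited peak positions alone, 1 list per library, and these fall under the unit other, with no count, height or score. Bowtie2 2.4.1, deepTools 3.5 and the mouse build mm10 are named, per the submitters' processing notes. The peak caller is not given in the sources used here. Every listed width was a multiple of 50 bp, the shortest being 200 bp. No pair of lists of a mark was identical.

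Gene positions came from RefSeq on GRCm38.p6, the coordinates of mm10. The strand of 5 listed genes and their promoters came from a RefSeq promoter table. The exon structure was not used here. For each library the percent of each protein-coding gene plus 5 kb each side (H3K4me1 also 50 kb) that lay in peaks was computed. Genes with at least 500 bp in peaks in at least 2 libraries were tested. H3K4me1 peaks that touched or overlapped were merged over libraries into regions, kept if seen in at least 2 libraries. The IgG list held 53972 peaks, which were not removed.

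The percentages went into limma 3.58.1 (R 4.3.3) with 1 mean per genotype, for 7 comparisons (the 4 single ones, the interaction and the guide and CSF3R averages), 2-sided, with Benjamini-Hochberg adjustment over all features of a fit and comparison, called at an adjusted p under 0.05. The code was tested on simulated data. Tables were handled in Python 3.11.15. Depth is unknown, and the number of libraries limits the precision. Alternatives were another filter, any overlap (a window scored only for holding a peak or not), no IgG-overlapping or 200 bp peaks, a covered-length covariate, a replicate block, other flanks, other region merging and each library left out.

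The listed genes and the further lists were chosen with earlier results of these data known. Named were all 9 listed genes. Of the further lists, up to 3 called genes in each direction per mark and comparison could be named, or else the one with the smallest p, and of regions up to 2 called in each direction per listed gene. Further regions at Lgals3, Csf1r and the class II genes were chosen after their values were seen.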

Additional observations from a re-analysis of the deposited data

Results flagged for a closer look

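At 2 H3K4me1 regions upstream of Lgals3 the interaction of CSF3R T618I with the Asxl1 guide passed the threshold, by limma over 22842 regions. The region chr14:47334901-47336000 had an interaction of 75.0 percentage points (SE 14.8, adjusted p = 0.0288), and chr14:47367401-47368700 one of 63.5 points (SE 13.0, adjusted p = 0.0339). In the first, no peak lay in any control or Asxl1-guide library, the CSF3R T618I libraries were at 0%, 22.7% and 31.8% and the double libraries at 90.9% and 95.5%. In the second, the same 5 libraries without the receptor were at 0%, those with CSF3R T618I at 19.2%, 26.9% and 34.6%, and the double at 80.8% and 100.0%. Each interaction kept its call only without 1 of the CSF3R T618I libraries, and reached an adjusted p of 0.13 without double library 1 and 0.134 without control library 1. Both were lost when regions had to be seen in at least 3 libraries (0.0873 and 0.104). Both regions passed the minimum of 2 libraries only through libraries with the receptor. With all control and Asxl1-guide libraries at 0%, the interaction equals the difference between double and CSF3R T618I and adds no separate evidence. The interaction called 4.21% of all regions.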

How the results depend on the processing

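Of 28 calls of a listed gene in a window, 15 held in every fit without 1 library and 17 under every other alternative apart from any overlap. Over 474 such fits 372 kept the call, 102 lost it and 0 reversed. For H3K27me3, 1 listed gene was called (Klf4), and 0 under any overlap, with the replicate block (adjusted p = 0.0918 in CSF3R T618I against control) or with a 10 kb flank. Without 1 library it was 0 to 2, with 2 (Klf4 and H2-Aa) without Asxl1-guide library 2. For H2AK119ub 0 were called, and 1 (Lgals3) with a 1 kb flank. In fits without 1 library that kept more than 1 library per genotype, 0 to 2 were called. These were Lgals3 and Ciita without CSF3R T618I library 1, and Lgals3 without CSF3R T618I library 3. Calls in fits that leave 1 control or 1 double library are not counted for this mark. For H3K4me1, 4 were called in the gene window and 5 in the distal one, and 0 in both under any overlap. A window with a peak in every library cannot differ under any overlap. Cd74 and Lgals3 could, with a peak in the gene window in 7 and 6 of 10 libraries, and were not called. The same held for the distal window of H2-Aa, with a peak in 9 of 10. The 32 regions gave 14 called, and 10 to 15 under the alternatives. Counts over all genes moved more. For H3K27me3 in CSF3R T618I against control they were 217, 7 without control library 1 and 1225 without Asxl1-guide library 2. For the H3K4me1 averaged CSF3R T618I difference they were 1289, 692 without control library 1, 363 under any overlap and 1752 with the covered-length covariate. Replicate numbers did not meet the rule for pairing, a correlation above 0.1 in every same-numbered pair: deviations of same-numbered libraries correlated between -0.493 and 0.48 in H3K27me3, between -0.35 and 0.209 in H2AK119ub and between -0.097 and 0.425 in H3K4me1, where the median was 0.2 over 13 same-numbered and -0.147 over 24 other pairs. With the covered-length covariate Cd68 lost its call in double against CSF3R T618I (0.0547). With the block, Cd68 lost its CSF3R T618I calls (0.101, 0.102 and 0.055), while the H3K4me1 calls of Cd74, Csf1r and Lgals3 in the gene window held. In the distal window the block ended the calls of Cd74 (0.0807) and Lgals3 (0.057) in CSF3R T618I against control. With no filter, Cd68 in CSF3R T618I against control (0.0506) and double against CSF3R T618I (0.053), Klf4 for the averaged CSF3R T618I difference (0.0531) and, in the distal window, Cd74 in CSF3R T618I against control (0.0567) and H2-Eb1 (0.0546) lost theirs. Without IgG-overlapping peaks Klf4 (0.0559) and H2-Eb1 (0.125) did for that averaged difference, and with a 100 kb flank Csf1r did for double against the guide (0.178) and the averaged guide (0.329). Depth is unknown, so a missing peak is not shown to be absent signal.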
